A study of Mus musculus with 8 samples.

Results

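The genes described here encode matrix glycoproteins and components of elastic fibres. Of 37074 gene names on the array, 10 were taken by name: Fn1, Vcan, Sparc, Postn, Tnc, Thbs1, Thbs2, Fbn1, Eln and Fbln2. Together they had 25 of the 56605 probes that were not controls. Their signals were compared between Pvt1-silenced and negative control C2C12 cells, a mouse myoblast line, at passage 10 and in proliferation. The 4 silenced cultures had been transfected, with Lipofectamine 2000, with the LNA GapmeRs Pvt1_1 and Pvt1_3, short antisense oligonucleotides whose pairing with a transcript lets RNase H cut it. The 4 control cultures had received the same reagent with Negative Control GapmeRs, and both groups came from 1 cell line. The labels called the 4 samples of a group biological replicates. Gene expression was read on one-colour arrays, so each value is a normalised log2 signal of 1 probe, and each change is a log2 difference, silenced minus control.

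The extracellular matrix around muscle cells is a network of secreted proteins that cells both build and hold on to. Fibronectin is assembled into fibrils by integrins and is the scaffold on which other matrix proteins are laid down. Matricellular proteins such as SPARC, periostin, tenascin C and the thrombospondins are not mainly structural, and they modulate adhesion and growth factor signals during repair. Elastic fibres consist of an elastin core on fibrillin microfibrils, with fibulins joining the parts. Proliferating myoblasts are embedded in such a transitional matrix before they fuse.

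Positive and significant spots made up 51.6% to 62.5% of each array, with silenced replicate 4 the dimmest. The target fell: the brightest Pvt1 probe changed by -2.86 (SE 0.32, limma adjusted p = 0.000682). A spot counted as well above background by the scanner's own flag. Another Pvt1 probe was so on all control arrays and on no silenced one, and was at least 5.41-fold higher in controls, while the other 3 were on no array and were not tested. Of 8 myoblast markers 7 were well above background on at least 1 array, and Myf5 was on none. Myf5 differed by 0.94 and was not called (limma adjusted p = 0.053). It was called higher after cyclic loess, at 1.15, the 75th percentile shift, at 1.35, and without the mask on dim spots, at 1.16. That also held in the authors' series table, at 1.18, with the slide row as a block, at 1.30, and without silenced replicate 4, at 1.155. Myod1, Des and Cdh15 fell, with changes of -1.95, -1.35 and -0.86. The Cdh15 call was lost with the slide row as a block, without control replicate 4, and after the 75th percentile shift, where the change was -0.27. Pax7 and Vcam1 each differed by 0.02 and were not called, but Pax7 was called higher after cyclic loess, at 0.38, without the mask on dim spots, at 0.36, and in the authors' series table, at 0.37, and Vcam1 after the 75th percentile shift, at 0.46. Ncam1 and Itga7 were called lower at another probe than their brightest. The summed signal of the 8 markers lay between 110383 and 132358 in controls and between 75305 and 96545 after silencing. Of 6 differentiated muscle markers Acta1 fell by 1.88 on the log2 scale. Myh3, Myh8, Tnnt3 and Myog were not called, with changes of -0.58, -0.33, -0.26 and 0.13, and Ckm was not tested. The Myog value rests on control replicate 3, at 4.96 against 8.17 to 8.41 on the other controls, and is -0.70 without it. The sign for Tnnt3 also turned under other settings. Over all 28649 probes tested, 79.3% of the calls were lower in silenced cells after quantile normalization, against 49.3% after cyclic loess and 38.2% after a shift to the 75th percentile. The median change of all probes was -0.19, 0.02 and 0.16 under those scalings, and the first of these is the level that the changes given here compare with.

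Several of these genes had probes at different places in the transcript that did not move alike, and the probe sequences show which stretch each measured. Each sequence is given 5′ to 3′ in the sense of the transcript, as the array files hold it, with the base of the listed transcript at which it starts. All have 60 bases and at least 1 of the 3 reading frames without a stop codon, so each can lie in coding sequence. The first 3 below and the first of Tnc were placed by the files, on build mm9, over more than 60 bases of genome, so they cross an exon junction. Nothing is marked in capitals, since the place of the junction was not analysed here.
Fn1 at base 769: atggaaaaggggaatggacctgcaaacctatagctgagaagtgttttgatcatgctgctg
Fn1 at base 7252: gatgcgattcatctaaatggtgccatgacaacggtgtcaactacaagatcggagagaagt
Sparc at base 980: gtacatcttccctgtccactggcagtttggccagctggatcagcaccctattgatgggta
Vcan at base 1428: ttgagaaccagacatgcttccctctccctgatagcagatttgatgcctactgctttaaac
Tnc at base 2590: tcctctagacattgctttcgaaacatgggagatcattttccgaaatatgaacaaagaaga
Tnc at base 6486: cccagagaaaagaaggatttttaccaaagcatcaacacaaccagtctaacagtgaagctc

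Of the 25 probes, 20 from 9 genes had enough values to be tested. Eln had no tested probe, and 1 probe each of Sparc, Postn and Fbn1 was also left out. Among the 20, 7 were called lower and 1 higher after silencing, at an adjusted p under 0.05 in limma. That is 35.0% called lower, where 18.4% of all probes tested were lower, and 5.00% called higher, where 4.79% were. The 8 called probes belonged to 6 genes. The median change of the 20 probes was -0.59, and the 2 groups did not overlap for 11 of them, 55.0%, against 28.2% of all probes.

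**Figure D1:**
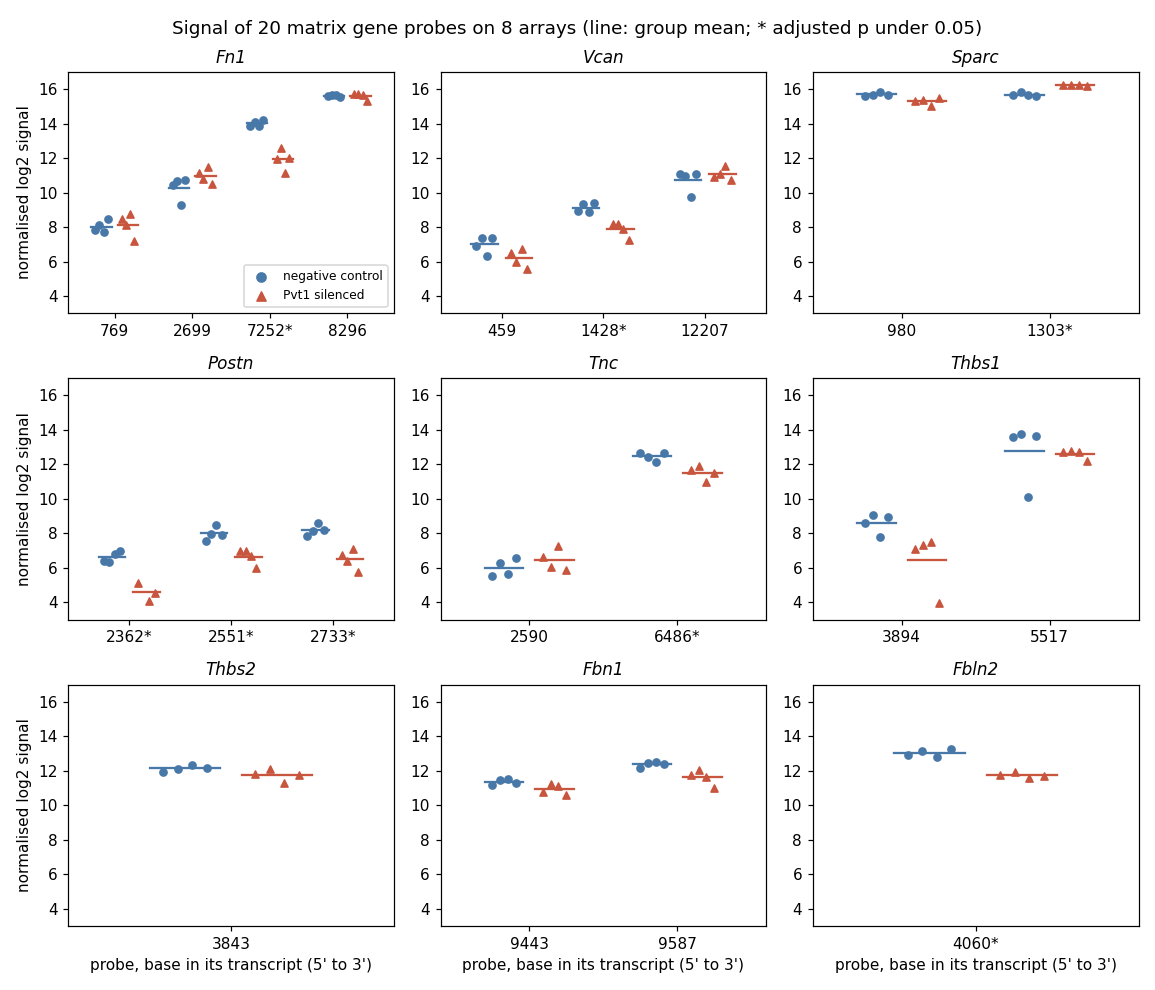
Normalised log2 signal (vertical axis) of each tested probe on the 4 negative control and 4 silenced arrays, with probes placed by their base in the listed transcript (horizontal axis). Points are single arrays, lines are group means, and an asterisk marks an adjusted p under 0.05; the Fn1 probe at base 7252 separates the groups while that at base 8296 does not.

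**Figure D2:**
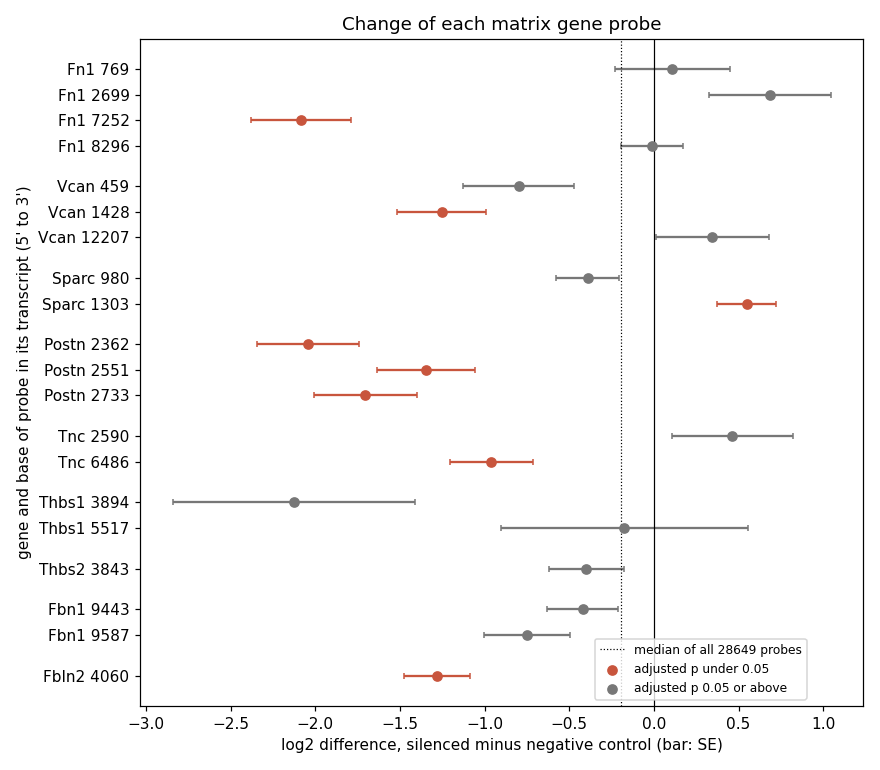
Log2 difference, silenced minus negative control, of each of the 20 tested probes (horizontal axis, bars are 1 standard error), ordered 5′ to 3′ within each gene (vertical axis). Red marks the 8 probes with an adjusted p under 0.05, and the dotted line is the median of all probes, -0.19.

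Fn1 encodes fibronectin, the adhesive glycoprotein that integrins assemble into fibrils. It was measured by 4 probes, all well above background on all 8 arrays, and that at base 7252 was the one called after quantile normalization. At base 7252 (chromosome 1, 71637422 to 71639659, minus strand, mm9) control arrays 1 to 4 gave 13.86, 14.11, 13.88 and 14.21. Silenced arrays 1 to 4 gave 11.96, 12.61, 11.153 and 12.002. All silenced values were below all control values. Fn1 at this probe fell by 2.08 (SE 0.30, limma adjusted p = 0.00166), to 23.6% of the control signal. This call held under every alternative run, with changes from -2.31 to -1.60.

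The Fn1 probe nearest the 3′ end, at base 8296 (chromosome 1, 71632116 to 71632175), had overlapping groups. Its control values were 15.62, 15.66, 15.65 and 15.57. Its silenced values were 15.71, 15.73, 15.68 and 15.34, of which silenced replicate 4 was the only one below the controls. The change was -0.01 (SE 0.18, limma adjusted p = 0.976). After the 75th percentile shift it was 0.51 and was called higher. From end to end these 2 probes span 7544 bases of the genome. Within each array, base 7252 minus base 8296 had a control mean of -1.61 ± 0.20 (SD, n = 4). Its mean on the silenced arrays was -3.68 ± 0.62 (SD, n = 4).

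The remaining Fn1 probes did not pass the test. At base 769 (chromosome 1, 71694694 to 71695800) control values ranged from 7.69 to 8.47 and silenced values from 7.21 to 8.75, with a change of 0.11 (SE 0.34, limma adjusted p = 0.853). At base 2699 of another listed transcript (chromosome 1, 71650690 to 71650749) control values were 10.45, 10.69, 9.27 and 10.73, and silenced values 11.13, 10.79, 11.48 and 10.48. The groups overlapped, and control replicate 3 was the lowest array. The change of 0.68 (SE 0.36, limma adjusted p = 0.20) was 0.35 without control replicate 3, and it passed the test, at 1.05, only after the shift to the 75th percentile.

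Hepatocytes are a known source of fibronectin, so the liver markers are set beside Fn1. Of 10 liver markers, 5 were well above background on all 4 silenced arrays and on no control array: Alb, Ahsg, Fgb, Mup1 and Serpina1c. Mup1 was at least 25.03-fold, Serpina1c at least 14.8-fold and Alb at least 10.2-fold higher in silenced cells. Fgg was well above background on no control and on 3 silenced arrays, so only a bound holds, at least 1.81-fold higher over the 3 control values that passed the mask (limma adjusted p = 0.00264). Hp, above on the same numbers of arrays, was not called (limma adjusted p = 0.165), also with 3 control values, but was called higher after cyclic loess, with a change of 1.59. Apoa2 was well above background on all 8 arrays and differed by -0.15 (limma adjusted p = 0.821), with control values from 9.66 to 10.77 and silenced values from 9.01 to 10.69. Apoa1 and Fga were well above background on no array. The summed signal of the 10 liver genes was between 870.2 and 1734 in controls and between 4967 and 6199 after silencing. Apoa2 made up 84.6% to 90.4% of that sum in controls and 17.8% to 29.4% after silencing. The other liver genes together gave 134 to 177 and 3894 to 4959. The part of the liver genes in the Fn1 values was not tested.

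Vcan encodes versican, a large chondroitin sulfate proteoglycan of provisional matrix. At base 1428 (chromosome 13, 89851810 to 89851869, minus strand) control values were 8.91, 9.32, 8.87 and 9.39. Silenced values were 8.16, 8.17, 7.91 and 7.22. The groups did not overlap, and Vcan at this probe was down-regulated by 1.25 (SE 0.26, limma adjusted p = 0.00904), to 41.9% of the control signal. The call held under every alternative, from -1.36 to -0.94.

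The other Vcan probes gave different values. At base 459 (chromosome 13, 89865266 to 89871120, crossing a junction) control values ran from 6.34 to 7.39 and silenced values from 5.58 to 6.74. This probe was well above background on 4 control and 2 silenced arrays, and its change of -0.80 (SE 0.33, limma adjusted p = 0.109) passed the test only without control replicate 3, at -1.02. At base 12207, nearest the 3′ end (chromosome 13, 89795080 to 89795139), control values were 11.08, 10.99, 9.73 and 11.09 and silenced values 10.92, 11.08, 11.52 and 10.75. Control replicate 3 again stood lowest. The change there was 0.34 (SE 0.33, limma adjusted p = 0.502), and 0.01 without that array. No reading frame of this 3′ probe is free of stop codons, so it cannot lie wholly in coding sequence.

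Sparc encodes a calcium-binding, collagen-binding matricellular protein, and its 2 tested probes lay on opposite sides of 0. At base 980 (chromosome 11, 55209449 to 55212106, minus strand) controls gave 15.62, 15.64, 15.82 and 15.68, and silenced arrays gave 15.31, 15.39, 15.02 and 15.47. At base 1303 (chromosome 11, 55208939 to 55208998) controls gave 15.64, 15.86, 15.64 and 15.58, and silenced arrays gave 16.23, 16.23, 16.25 and 16.20. The groups did not overlap at either probe, lower in silenced cells at the first and higher at the second.

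Sparc rose by 0.55 at base 1303 (SE 0.17, limma adjusted p = 0.0469), to 146% of the control signal, and was the only probe of the 20 called higher. This call was lost with the replicate number or the slide row as a block and without any 1 array other than silenced replicate 4, with changes from 0.51 to 0.61 when 1 array was left out. At base 980 the change was -0.39 (SE 0.19, limma adjusted p = 0.162), and it turned to 0.11 after the shift to the 75th percentile. It passed the test only with a robust trended prior. The probe at base 1303 has no reading frame free of stop codons, and that at base 980 has 2. A further Sparc probe, at base 597 of another listed transcript, was well above background on no array.

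Postn encodes periostin, a matricellular protein that promotes collagen cross-linking and is abundant in regenerating muscle. All 3 tested probes fell, within 347 bases of chromosome 3 (54194196 to 54194542, plus strand). The brightest, at base 2733, gave 7.85, 8.11, 8.62 and 8.21 in controls and 6.73, 6.37, 7.11 and 5.76 in silenced cells. No silenced value reached a control value. Its signal was down-regulated there, with a change of -1.70 (SE 0.31, limma adjusted p = 0.00459), to 30.7% of the control signal, a call that held under every alternative. This probe was well above background on 4 control and 3 silenced arrays.

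At base 2551 Postn fell by 1.35 (SE 0.29, limma adjusted p = 0.00999), from controls at 7.58 to 8.498 to silenced arrays at 5.98 to 6.99. With the slide row as a block that change was -1.21 and no longer passed. At base 2362 the control values were 6.40, 6.35, 6.80 and 6.99, all well above background. None of the silenced arrays was, so only a bound holds: Postn at this probe was at least 1.39-fold higher in controls (limma adjusted p = 0.00256). This call was lost in the methods' t-test with Benjamini-Hochberg adjustment. None of the 3 overlaps another, and a further Postn probe, at 54188575 to 54188634, was well above background on no array.

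Tnc encodes tenascin C, a hexameric glycoprotein that counteracts adhesion to fibronectin. At base 6486 (chromosome 4, 63620819 to 63620864, minus strand, the files placing 46 of its 60 bases) control values were 12.67, 12.43, 12.12 and 12.69. Silenced values were 11.67, 11.895, 11.002 and 11.494. The groups did not overlap, and Tnc fell by 0.96 (SE 0.25, limma adjusted p = 0.0209), to 51.4% of the control signal. The call was lost without control replicate 1, 2 or 4, where the change was -0.90, -0.98 and -0.89, and with the slide row as a block, at -0.98. It was also lost after the 75th percentile shift, at -0.55, in the authors' series table, at -0.81, without the mask on dim spots, at -0.79, and in the methods' t-test with that adjustment. At base 2590 (chromosome 4, 63674248 to 63675011) only 2 control and 2 silenced arrays were well above background. Control values there ran from 5.51 to 6.57 and silenced values from 5.86 to 7.28, with a change of 0.46 (SE 0.36, limma adjusted p = 0.39) that passed the test after cyclic loess, at 0.86, and after the 75th percentile shift, at 0.80.

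Thbs1 encodes thrombospondin 1, an activator of latent TGF-β, and each of its 2 probes held 1 array far from the rest. At base 5517 (chromosome 2, 117952585 to 117952644, plus strand) controls gave 13.60, 13.76, 10.08 and 13.63, and silenced arrays gave 12.69, 12.80, 12.69 and 12.19. Apart from control replicate 3, every control value was above every silenced value. The change was -0.18 (SE 0.73, limma adjusted p = 0.894), and without control replicate 3 it was -1.07 and passed the test.

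At base 3894 of Thbs1 (chromosome 2, 117950962 to 117951021) controls gave 8.59, 9.04, 7.78 and 8.92, and silenced arrays gave 7.09, 7.31, 7.47 and 3.96. The groups did not overlap, and the change was -2.13 (SE 0.71, limma adjusted p = 0.0571). It passed without silenced replicate 4, at -1.29, and without control replicate 3, at -2.39. It also passed after cyclic loess, at -1.75, the 75th percentile shift, at -1.83, normexp, at -1.30, and a stricter mask, at -1.39. The 129 spots within 10 rows and columns of this one, with a mean log2 signal above 7, were also low on silenced replicate 4, with a median of -1.51 against the other silenced arrays, while that of the whole array was 0.09. For the 150 such spots around the probe at base 5517, control replicate 3 stood 0.17 above the other control arrays, while the probe itself differed by -3.62. Thbs2, a related thrombospondin that inhibits angiogenesis, gave 11.94 to 12.35 in controls and 11.30 to 12.11 in silenced cells at base 3843 (chromosome 17, 14804526 to 14805789, crossing a junction). Its change of -0.40 (SE 0.22, limma adjusted p = 0.227) did not pass.

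Fbn1 encodes fibrillin 1, the main protein of microfibrils. Its tested probes start 144 bases apart near the 3′ end. At base 9587 (chromosome 2, 125126583 to 125126642, minus strand) controls gave 12.16, 12.42, 12.52 and 12.37, and silenced arrays gave 11.77, 12.06, 11.66 and 10.98. The groups did not overlap, and the change was -0.75 (SE 0.25, limma adjusted p = 0.0572). It passed without silenced replicate 2, at -0.90, without silenced replicate 4, at -0.54, and after cyclic loess, at -0.58. Normexp, the authors' series table, either other mask and a robust trended prior also gave a call, at -0.80 to -0.57. The 125 spots around this probe, taken as for Thbs1, were low on silenced replicate 4. Their median was -0.38 against the other silenced arrays, and the probe itself differed by -0.27. At base 9443 (125126727 to 125126786) controls ran from 11.19 to 11.52 and silenced arrays from 10.61 to 11.23, a change of -0.42 (SE 0.21, limma adjusted p = 0.178).

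Eln, encoding elastin, could not be compared. Its probe at base 3058 (chromosome 5, 135179129 to 135179188) was well above background on 1 array, control replicate 3, and that at base 3633 (135178554 to 135178613) on none. Fbln2 encodes fibulin 2, which binds fibronectin, fibrillin and tropoelastin, and it had 1 probe, at base 4060 (chromosome 6, 91222118 to 91222177, plus strand). Control arrays gave 12.91, 13.16, 12.80 and 13.25, and silenced arrays 11.74, 11.95, 11.59 and 11.71. All silenced values were at least 0.85 below the lowest control. Fbln2 was down-regulated by 1.28 (SE 0.19, limma adjusted p = 0.00225), to 41.1% of the control signal, and the call held under every alternative, from -1.36 to -0.84.

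With the slide row as a block, 5 of the 20 probes were called lower in limma and none higher, with 8 and 1 at an unadjusted p under 0.05. Of all probes 8.98% were then called lower and 1.86% higher. The upper row held control replicates 1 to 3 with silenced replicate 1, and the lower row control replicate 4 with silenced replicates 2 to 4. Within the rows, Fn1 at base 7252 differed by -1.99 and -2.29, and Vcan at base 1428 by -0.87 and -1.62. Fbln2 differed by -1.22 and -1.50, Postn at base 2733 by -1.47 and -1.79, Tnc at base 6486 by -0.74 and -1.23, and Sparc at base 1303 by 0.52 and 0.65.

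Whether probes of 1 gene moved apart was then tested directly, on the difference between the most 5′ and the most 3′ tested probe of a gene on each array. Over 6215 genes this difference was called more negative in silenced cells for 31.5% and less negative for 7.18%, and its median change was -0.43. Of the 7 genes here that had such a pair, Vcan and Sparc were called more negative and Tnc less negative. In Sparc, base 980 minus base 1303 was -0.03, -0.22, 0.18 and 0.10 in controls and -0.92, -0.84, -1.24 and -0.73 in silenced cells. This was a change of -0.94 (SE 0.19, limma adjusted p = 0.00519), and it held under each of the 20 alternatives run. The groups did not overlap in Sparc, Vcan, Tnc and Thbs1, nor in 39.9% of all genes with a pair.

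In Vcan, base 459 minus base 12207 was -4.20, -3.60, -3.39 and -3.71 in controls and -4.42, -5.11, -4.78 and -5.17 in silenced cells. All silenced values lay below the controls, with a change of -1.14 (SE 0.25, limma adjusted p = 0.00753). In Tnc, base 2590 minus base 6486 was -7.16, -6.16, -6.46 and -6.12 in controls and -5.03, -5.83, -3.73 and -5.63 in silenced cells. This amounted to a change of 1.42 (SE 0.46, limma adjusted p = 0.0365). The probe at base 2590 was well above background on 2 control and 2 silenced arrays only, and by itself it was not called. How far this difference reflects its dim signal was not tested, so the Tnc call alone does not show that the probes moved apart. The Vcan probe at base 459 was well above background on 4 control and 2 silenced arrays, and this was not tested there either. The Tnc call was lost with either block, in the methods' t-test and without control replicate 1, 2 or 4 or silenced replicate 1 or 3, where the change ran from 0.98 to 1.54.

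The pairs of Fn1, Postn, Thbs1 and Fbn1 did not pass. Their changes were 0.12, -0.38, -1.95 and 0.33, with limma adjusted p of 0.778, 0.51, 0.0786 and 0.203. That of Thbs1 passed with the replicate block and after the 75th percentile shift, at -2.19. For Fn1 the pair joined bases 769 and 8296, so the probe at base 7252 between them took no part. For Postn silenced replicate 2 had no value and was dropped. The Thbs1 pair held control replicate 3 at -2.30 against -5.01 to -4.71 on the other controls, and silenced replicate 4 at -8.23 against -5.60 to -5.22 on the other silenced arrays.

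**Figure D3:**
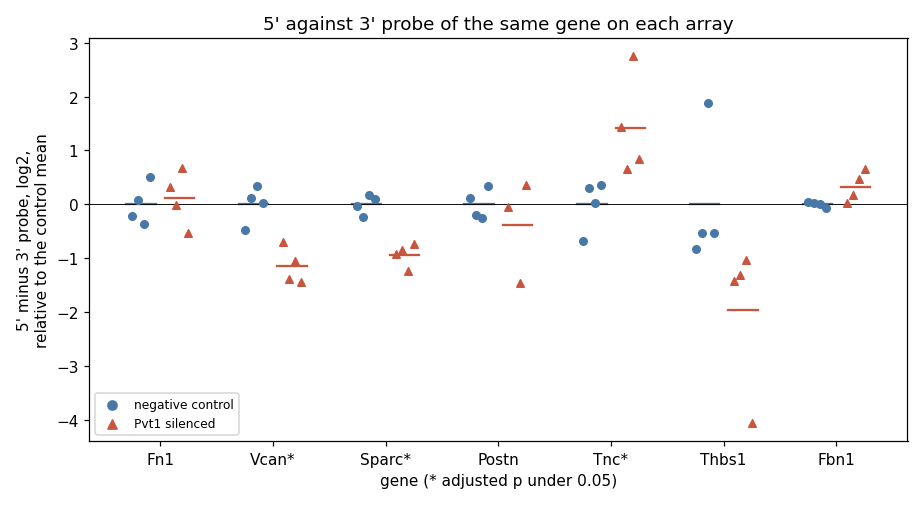
Log2 difference between the most 5′ and the most 3′ tested probe of each gene on each array, relative to the control mean (vertical axis), for 7 genes (horizontal axis). Points are arrays, lines are group means, and an asterisk marks an adjusted p under 0.05; silenced arrays sit below the controls in Vcan and Sparc and above them in Tnc, whose 5′ probe was well above background on only 2 arrays of each group.

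By the brightest probe of each gene, Postn, Tnc and Fbln2 were called lower and Sparc higher among the 9 tested genes, whose median change was -0.40. Over 19360 genes 14.0% were called lower and 5.99% higher, with a median of -0.09. Fn1 and Vcan, whose brightest probe is that nearest the 3′ end, were not called in this way.

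Other matrix genes of the same kinds were counted by their brightest probe. Of 18 further elastic fibre genes 14 were tested, 2 fell and 1 rose, with a median change of 0.06. Fbln5, which guides elastin assembly, fell by 1.06 (SE 0.31), and Emilin2 fell by 0.85 (SE 0.21). Mfap5, a microfibril protein well above background on 1 control array, rose by 1.09 (SE 0.31). The latent TGF-β binding proteins Ltbp1 to Ltbp4 were not called by their brightest probe, but another probe of Ltbp1, Ltbp3 and Ltbp4 was called lower. That of Ltbp4, well above background on all 8 arrays, fell by 1.595, while that of Ltbp1 was well above background on 1 control and no silenced array, and that of Ltbp3 on 4 control arrays and 1 silenced array. With Fbln1 and Efemp2 this held for 5 uncalled genes of the list, and for no gene was another probe called higher. Over the whole array 5269 of 28649 tested probes were called lower and 1373 higher. Of the 19360 brightest probes among them, 2717 were lower and 1160 higher, so calls at other probes were also common outside the list. After the 75th percentile shift 1 gene of this list was called lower and 6 higher. After cyclic loess 5 genes of this list were called higher, and with the slide row as a block limma called none, with 2 lower and 2 higher at an unadjusted p under 0.05. Without control replicate 1 or 2 the counts were 1 lower and 0 higher, without control replicate 4 0 and 0, and without silenced replicate 4 2 and 3. Without control replicate 3 they were 1 and 1, without silenced replicate 2 1 and 0, and without silenced replicate 1 or 3 2 and 0. At an unadjusted p under 0.05 these counts were 2 to 3 lower and 2 to 5 higher. The share of all genes called higher by the brightest probe moved with the same settings, from 5.99% to 29.8% after the 75th percentile shift, 21.8% after cyclic loess, 2.41% with the slide row as a block, 15.3% without silenced replicate 4 and 2.98% to 7.37% without any other 1 array. The share called lower was 10.66%, 14.1%, 5.97% and 13.9% under the first 4 of these, and 7.45% to 14.8% without any other 1 array.

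Of 26 matricellular genes 19 were tested, 4 fell and 2 rose, with a median change of 0.21. Ctgf, a CCN family growth factor-binding protein, had 13.28, 13.28, 13.51 and 13.41 in controls and 11.48, 11.37, 11.54 and 10.94 in silenced cells. It fell by 2.04 (SE 0.20, limma adjusted p = 0.000475), with no overlap. Spock2, a SPARC-related proteoglycan, fell by 2.88 (SE 0.39) and was well above background on 1 silenced array. Tgfbi rose by 1.44 (SE 0.41) and was well above background on 1 control array. Cyr61 and Wisp2, also of the CCN family, were the other 2 called lower, and Matn4 the other called higher, named here as the rest of a small count. Nov and Wisp1, CCN genes too, were not called, at 1.15 (limma adjusted p = 0.0531) and 0.21. Nov was called higher after cyclic loess, at 1.52, the 75th percentile shift, at 1.45, and without the mask. It was also called in the authors' series table and without control replicate 3 or silenced replicate 4. Wisp1 was called higher after that shift, at 0.75, and in the series table. Wisp2 was well above background on 3 control and no silenced arrays, and its call was lost without control replicate 2, 3 or 4, without silenced replicate 1 or 3, and with the slide row blocked. Matn4 was well above background on no control and 1 silenced array. Smoc2, Wisp1 and Ecm1, not called by their brightest probe, were called lower at another, and Smoc2 higher at a further one that was well above background on 1 silenced array. Further probes of Spock2 and Matn4, well above background on no array, were not called. After cyclic loess 6 were called higher, and after the 75th percentile shift 10, settings under which the share over all genes also rose as given above. Without silenced replicate 4 that count was 7, without control replicate 3 it was 3, and without any other array it was 0 in limma, with 3 to 4 at an unadjusted p under 0.05. With the slide row as a block it was also 0, with 5 before adjustment.

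Of 13 proteoglycans and link proteins 6 were tested, 2 fell and 1 rose, with a median change of -0.85. Bgn, encoding biglycan, gave 12.33, 12.59, 9.21 and 12.48 in controls and 8.52 to 9.17 in silenced cells, and it fell by 2.86 (SE 0.67, limma adjusted p = 0.0142). Control replicate 3 was again the low control, and without it the change was -3.675. The call was lost without the mask and in the authors' series table, at -2.62. A second Bgn probe, well above background on all 8 arrays, differed by -0.07 and was not called (limma adjusted p = 0.90). Hapln4, the other that fell, was well above background on no array. Without silenced replicate 4 the count of rises was 2. Dcn, encoding decorin, rose by 2.49 (SE 0.24, limma adjusted p = 0.000463), from 8.57 to 9.30 in controls to 11.09 to 11.82 in silenced cells. Dcn is also 1 of 6 fibroblast markers, of which Pdgfra and Pi16 were also called higher. Pdgfra rose by 0.73, a call lost with the slide row as a block, at 0.69, and without any 1 array other than silenced replicate 4, at 0.62 to 0.81. Pi16 was well above background on all silenced arrays and on no control array, and was at least 3.03-fold higher. Dpt, well above background on 1 control array, differed by -0.53 and was called lower, at -0.84, without control replicate 3. Thy1 and Lum were well above background on no array, and the summed signal of the 6 was between 616 and 757 in controls and between 3158 and 3990 after silencing. Dcn made up 61.9% to 75.4% of that sum in controls and 85.2% to 86.3% after silencing, and the other 5 together gave 186 to 242 and 434 to 592. Their part in the matrix gene values was not tested, and in such bulk samples fewer cells of a type and less RNA per cell cannot be told apart.

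Of 17 receptors for these proteins 14 were tested, 3 fell and 1 rose, with a median change of -0.28. Itga5, the α subunit of the fibronectin receptor, gave 12.80, 13.01, 12.49 and 12.99 in controls and 10.14, 10.34, 9.59 and 10.57 in silenced cells. It was down-regulated by 2.66 (SE 0.25, limma adjusted p = 0.000426), with no overlap. Lrp1, an endocytic receptor for thrombospondin, fell by 1.98 (SE 0.23), and Itga4, another fibronectin-binding subunit, rose by 1.56 (SE 0.33). Of 2 further Lrp1 probes neither was called, at -0.52 for that well above background on all 8 arrays and at 0.53 for that so on 3 silenced arrays. Sdc3, a syndecan, was the other gene that fell. Itgb1, not called by its brightest probe, fell by 1.63 at another. These counts were the same after cyclic loess, without the mask and with the slide row as a block. Without control replicate 3, 4 genes were called lower, Sdc4 among them. Sdc4 gave 8.88 on that array against 13.07 to 13.38 on the other controls, and 10.71 to 11.24 in silenced cells. Its change was -1.23 and not called with all arrays, and -2.33 without control replicate 3.

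**Figure D4:**
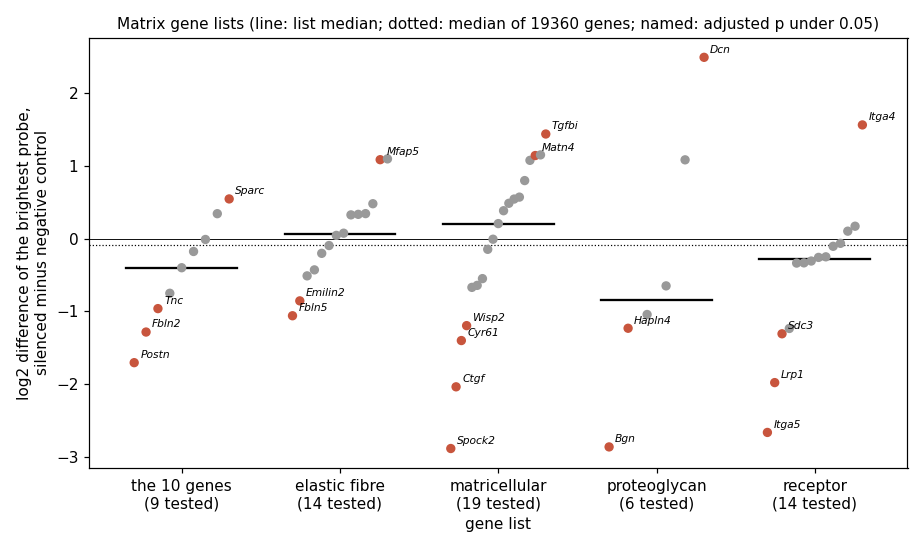
Log2 difference, silenced minus negative control, of the brightest probe of each tested gene (vertical axis) in the 10 genes and in 4 lists of related genes (horizontal axis). Red points with names have an adjusted p under 0.05, black lines are list medians, and the dotted line is the median of all genes, -0.09.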

How the data were processed

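RNA of 8 C2C12 cultures was labelled with Cy3 (Low Input Quick Amp kit, which primes cDNA at the poly(A) end) and hybridised to 8 arrays on 1 slide, read in 1 scan. The authors deposited scanner files of spot intensity, background-subtracted by Feature Extraction, version 12.0.0.7 per the file headers and 10.7.3.1 in the submitters' processing notes, and a series table of normalized intensity. Intensities were masked where spots were not positive and significant or were outliers, using the deposited flags (0 or 1), then put on the log2 scale and quantile normalized, and spots of 1 probe were averaged. A probe was tested (28649 in all) if neither group missed more than 1 of its 4 values. The linear model of limma 3.58.1, run under R 4.3.3, had group alone, with moderated errors (eBayes) and a Benjamini-Hochberg threshold of 0.05. The 5′ minus 3′ difference was fitted likewise over 6215 genes. Masking of dim spots, quantile normalization and probe averaging were taken from the study's methods, whereas dropping outlier spots and testing with limma were choices made here.

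Probes were matched by the gene name in the files, coordinates are those of the files (mm9), and a gene in a list was represented by its brightest probe. A probe well above background in only 1 group has a bound: the bright mean against, per dim array, the higher of its own value and the lowest value well above background. The members and lists were chosen with earlier results of these data known. The rule for named genes took all probes of the 10 genes and Pvt1, the up to 2 largest called rises and falls per list, and every called marker. Genes taken from a list had to be well above background on at least 3 arrays of a group. Other genes, among them Cyr61, Wisp2, Nov, Matn4, Sdc3, Sdc4, Hapln4 and those called at another probe, were named after their values were seen. The t-test that the study names for these arrays, two-sided with unequal variance, was run as an alternative (the methods' t-test), with Benjamini-Hochberg adjustment added here. Permutation p-values with Bonferroni correction, which the methods give for lncRNAs of fibre types, were not used. On simulated data, over 28649 probes with 200 changed, the fit recovered 85.0% of changes of 2 log2 and 6% of 1 log2, with 5 false calls. The real fit called 5269 probes lower and 1373 higher, and with more calls the adjusted threshold is less strict. The simulated shares therefore do not give the power of the real fit. The alternatives were other scalings and masks, the series table, complete probes, the replicate number or slide row as a block, a robust trended prior, each array left out, the methods' t-test and other probes of a gene. Depth has no meaning for arrays, and their number limits the precision. Figures were drawn with matplotlib 3.10.9.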

Additional observations from a re-analysis of the deposited data

Results flagged for a closer look

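In groups of 4 arrays, an array was singled out when its gap to the nearest other array took up nearly the whole range of the group, a limit that chance passes in about 1 of 20 groups. Of 52 groups examined 6 passed it, from 3 genes. Control replicate 3 was low at base 5517 of Thbs1, with 10.08 against 13.60 to 13.76 on the other controls, and at base 12207 of Vcan, with 9.73 against 10.99 to 11.09. Silenced replicate 4 was low at base 3894 of Thbs1, with 3.96 against 7.09 to 7.47, and at base 8296 of Fn1, with 15.34 against 15.68 to 15.73. Both arrays therefore also stood apart in the 5′ minus 3′ difference of Thbs1. There control replicate 3 was at -2.30 against -5.01 to -4.71, and silenced replicate 4 at -8.23 against -5.60 to -5.22.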

How the results depend on the processing

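Of 376 values of the 20 probes under the alternatives, 321 kept their direction and side of the threshold, 19 lost and 20 gained a call, and 16 turned sign. The count of probes called lower ranged from 5 to 10 over the alternatives, against 7, and from 6 to 10 with 1 array left out. The share of all probes called lower ran from 8.46% to 24.4% and from 10.46% to 20.1%. The count called higher, 1, was 4 after the 75th percentile shift, 2 after cyclic loess, 0 with the replicate or slide row block, and 0 to 1 with 1 array left out. The share of all probes called higher was 24.7%, 18.7%, 3.57%, 1.86% and 2.38% to 12.7% under these. Genes called higher by the brightest probe, 1, were 2 after the 75th percentile shift, 0 with either block and with the mean of all probes, and 0 to 1 with 1 array left out. Genes with a more negative 5′ minus 3′ difference, 2, were 1 with the stricter mask. Genes with a less negative one, 1, were 0 with that mask, either block and the methods' t-test, and 0 to 1 with 1 array left out. In the lists, cyclic loess and no mask each gave 5 higher elastic fibre, 6 higher matricellular and 2 higher proteoglycan genes, and no mask 1 lower proteoglycan gene. Further settings were run on the lists after the data were seen. Elastic fibre genes were 1 lower and 6 higher after the 75th percentile shift, 5 higher in the authors' series table, 0 and 0 with the slide row block, and 0 to 2 lower and 0 to 3 higher with 1 array left out. Higher matricellular genes were 10, 7 and 0 under those settings and 0 to 7 with 1 array left out. Higher proteoglycan genes were 2 after the shift and in the series table, which had 1 lower, and 1 to 2 with 1 array left out.

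The values that turned sign belonged to 4 probes and 2 pairs. Fn1 at base 8296 (-0.01) was 0.51 after the 75th percentile shift, 0.0421 in the authors' series table, 0.0418 after cyclic loess, 0.0391 with the slide row block, 0.0698 without the mask, and -0.0499 to 0.0814 with 1 array left out. Fn1 at base 769 ran from -0.10 to 0.42 with 1 array left out. Sparc at base 980 was 0.11 after the 75th percentile shift. Thbs1 at base 5517 was 0.36 after that shift, 0.0684 after cyclic loess and 0.0031 without the mask, and ran from -1.07 to 0.16 with 1 array left out. The Fn1 pair was -0.10 after the 75th percentile shift and ran from -0.0669 to 0.33 with 1 array left out. The Postn pair was 0.25 with normexp and ran from -0.75 to 0.15. The cause was not tested. A stricter mask or complete probes left Postn at base 2362 without a value, the stricter mask also Vcan at base 459 and Tnc at base 2590, and a least distance of 300 bases left out the Postn and Fbn1 pairs.

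Same-numbered arrays deviated together with r of -0.04, 0.19, 0.22 and 0.06, against -0.19 to 0.11 for arrays of different numbers. The values 0.19 and 0.22 lay above that range, so these r do not settle whether the numbers were pairs. The labels did not state pairs, and the main fit had group alone. With the replicate block 7 probes were called lower (13.9% of all probes) and 0 higher in limma, 9 and 0 at an unadjusted p under 0.05, and the Thbs1 pair (-1.95) passed. The methods' t-test called 5 lower and 1 higher after Benjamini-Hochberg adjustment (9.96% and 1.98% of all probes), 9 and 1 before.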
